A study of Homo sapiens with 4 samples.

Results

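The insulin-like growth factor (IGF) genes described here are the 10 genes IGF1, IGF2, IGF1R, IGF2R and IGFBP1 to IGFBP6, taken by symbol from the mRNA table of 19610 gene symbols, where they account for 40 of 79798 transcripts. The cells were hFOB1.19, a human fetal osteoblast line that is 1 clone, immortalised with a temperature-sensitive SV40 large T antigen that all libraries share. RNA was taken on day 0, the control, from cells kept at the lower temperature at which the line proliferates, and on days 3, 6 and 9 of culture at the higher temperature at which it mineralizes. The comparison asks which RNAs differ as the cells move from growth to matrix mineralization. There is 1 library per time point, so the values have no replicate error and no test between time points was possible. In each comparison with day 0, neither the time in culture nor the activity of the temperature-sensitive T antigen can be told apart from the temperature.

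IGF1 and IGF2 are secreted hormones that bind the receptor tyrosine kinase IGF1R, which signals through docking proteins to the PI3K-AKT and MAP kinase cascades. IGF2R, the cation-independent mannose 6-phosphate receptor, takes up IGF2 for degradation and does not signal like IGF1R. The 6 binding proteins hold IGFs outside the cell, which limits their access to IGF1R or stores them in the matrix, and proteases release the ligand again. In bone, IGFs are among the most abundant growth factors of the matrix and stimulate the formation of new bone by osteoblasts.

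In plain FPKM, IGFBP5, IGFBP2 and IGF2 were over 10 times higher on each later day, from at most 2.86 FPKM on day 0. Such ratios depend on the scale, and IGF2 on day 9 was 11.2 times higher, or 7.40 times after 1 was added. IGFBP4 and IGF1R were over 2 times higher on each later day, and IGF2R and IGFBP6 stayed within the 2-fold limit. IGFBP3 was lower on days 3 and 6 and back above its starting level on day 9. IGF1 and IGFBP1 were under 1 FPKM in every library. The unit is FPKM, fragments scaled by transcript length and by the mapped fragments of the library, which the authors deposited per transcript and which was summed here per gene. Because FPKM is per length, levels of different genes are set side by side here. Their order can depend on whether transcripts are summed, and the effect of the library preparation on it is not known. A log2 ratio was taken after 1 was added to each FPKM, and a gene with at least 1 FPKM in any library was called 2-fold higher or lower at a log2 ratio of at least 1 or at most -1. The 8 IGF genes other than IGF1 and IGFBP1 passed this minimum, and all 8 were already above it on day 0. Fewer cells of a type and less RNA per cell cannot be told apart in such bulk RNA.

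The cells carried osteoblast markers. The bone collagen genes COL1A1 and COL1A2, the matrix protein gene SPARC and the osteoblast transcription factor gene RUNX2 were expressed in every library, with RUNX2 at 7.37 FPKM on day 0 and 26.2, 19.3 and 18.2 on days 3, 6 and 9. ALPL, the alkaline phosphatase of mineralizing cells, had 0.294 FPKM on day 0 and 4.32, 4.35 and 4.18 later. Of the 11 osteoblast markers looked at, 5 were under 1 FPKM in every library, namely SP7, BGLAP, IBSP, PHEX and DMP1. Of 10 markers of other cell types, CD68 and KRT18 were above 1 FPKM in every library, with CD68 at 16.2, 37.5, 65.1 and 90.6 and KRT18 at 394, 216, 182 and 187 FPKM in the order of days, while the other 8, among them PTPRC of blood cells and PECAM1 of endothelium, together had between 0.802 and 1.70 FPKM. The part of such cells in the results was not tested. The FPKM of all genes of the mRNA table summed to 617857 on day 0 and to 538072, 545948 and 569922 later, so that scaling the libraries to the same sum would raise a log2 ratio of plain FPKM by 0.20, 0.18 or 0.12. Since 1 is added to each FPKM, the ratios used here move by other amounts, such as that of IGF2 on day 3 from 3.07 to 3.46.

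The regions around the start sites of the binding protein and receptor genes are shown to set 2 of the binding protein genes that were higher and the 1 that was lower on day 3 beside a receptor gene that stayed within the limit. The sequences are those of RefSeq on GRCh38.p14, from 110 bases before the start site to 30 bases from it on, 140 bases each. They lie at chr2:216695520-216695659 on the minus strand for IGFBP5, chr17:40443340-40443479 on the plus strand for IGFBP4, chr7:45921243-45921382 on the minus strand for IGFBP3 and chr6:159968972-159969111 on the plus strand for IGF2R. Capitals mark the TATA box TATAAA or its variants TATATA and TATTTA, the GC box GGGCGG and the E-box CACGTG, each on either strand.
IGFBP5: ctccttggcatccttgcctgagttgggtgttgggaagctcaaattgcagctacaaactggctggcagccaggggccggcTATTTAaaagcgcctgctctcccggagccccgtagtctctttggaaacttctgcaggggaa
IGFBP4: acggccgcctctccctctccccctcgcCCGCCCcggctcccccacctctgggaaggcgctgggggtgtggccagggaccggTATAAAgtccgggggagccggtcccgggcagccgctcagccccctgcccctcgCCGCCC
IGFBP3: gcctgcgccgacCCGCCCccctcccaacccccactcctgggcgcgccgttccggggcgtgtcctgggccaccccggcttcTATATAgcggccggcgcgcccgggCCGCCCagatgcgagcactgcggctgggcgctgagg
IGF2R: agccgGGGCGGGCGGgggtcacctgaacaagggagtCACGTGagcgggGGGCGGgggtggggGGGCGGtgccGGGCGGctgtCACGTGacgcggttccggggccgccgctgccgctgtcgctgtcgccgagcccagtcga
Each of the 3 binding protein genes shown had 1 TATA-like match in the 300 bases from 250 before the start site, with its first base at position -31 in IGFBP5, -29 in IGFBP4 and -30 in IGFBP3, counted from 0 at the start site. TATAAA, as in IGFBP4, was in 11.5% of all 35116 such RefSeq windows, TATATA, as in IGFBP3, in 3.99%, and TATTTA, as in IGFBP5, in 12.6%. These shares count a match anywhere in the 300 bases, on either strand and for each motif apart. The share of windows with any TATA-like match at such positions was not counted. IGF2R had no TATA-like match, and in its 300 bases 6 GC boxes, of which those at -105 and -101 overlap, and 3 E-boxes. The GC box at -167 and the E-box at -132 lie outside the bases shown. IGFBP3 and IGFBP4 had 2 GC boxes each and IGFBP5 had 0. Of all windows, 45.0% had a GC box and 7.26% an E-box. The windows of IGF1R, IGFBP6 and IGF1 and the 3 windows of IGFBP2 had no TATA-like match. Of the 10 genes, 8 were in the RefSeq table, without IGF2 and IGFBP1. The binding protein genes with a TATA-like match thus include both the most strongly higher gene and the gene that was lower.

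Of the ligand RNAs, only that of IGF2 passed the minimum. IGF2 (ENSG00000167244), the fetal growth factor, had 1.66 FPKM on day 0 and 21.3, 22.8 and 18.7 FPKM on days 3, 6 and 9. All 3 later libraries were thus above day 0, by 12.8, 13.7 and 11.2 times, and they lay close to each other. On the log2(FPKM + 1) scale the ratio to day 0 was 3.07, 3.16 and 2.89, which placed IGF2 at rank 43, 54 and 101 by rise among the 12859 genes that passed the minimum, or at rank 76, 79 and 153 with 0.1 in place of 1 added to each FPKM. IGF1 (ENSG00000017427), the ligand that growth hormone induces in liver and bone, had 0.158 FPKM on day 0 and 0.0529, 0.0669 and 0.359 later. These values were under the minimum, so that IGF1 was not called in any comparison and its order between the libraries is not read.

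Of the receptors, IGF1R was higher and IGF2R was not. IGF1R (ENSG00000140443), the signalling receptor, had 17.6 FPKM on day 0 and 46.7, 46.1 and 43.6 on days 3, 6 and 9, with log2 ratios of 1.36, 1.34 and 1.26. The later libraries lay within a log2 range of 0.10, while day 0 was apart from all of them. IGF2R (ENSG00000197081) had 32.0, 38.0, 37.3 and 41.0 FPKM in the order of days, with log2 ratios of 0.24, 0.21 and 0.35, all within the limit. In the FPKM summed per gene, the order of the receptors turned over. On day 0 the FPKM of IGF1R was 0.550 times that of IGF2R, and on days 3, 6 and 9 it was 1.23, 1.24 and 1.06 times that of IGF2R. With the most abundant transcript alone there was no such turn. ENST00000268035 of IGF1R then had 6.32, 21.4, 17.6 and 15.1 FPKM, and ENST00000356956 of IGF2R was above it in all 4 libraries, with 25.6, 29.8, 30.1 and 34.3.

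**Figure D1:**
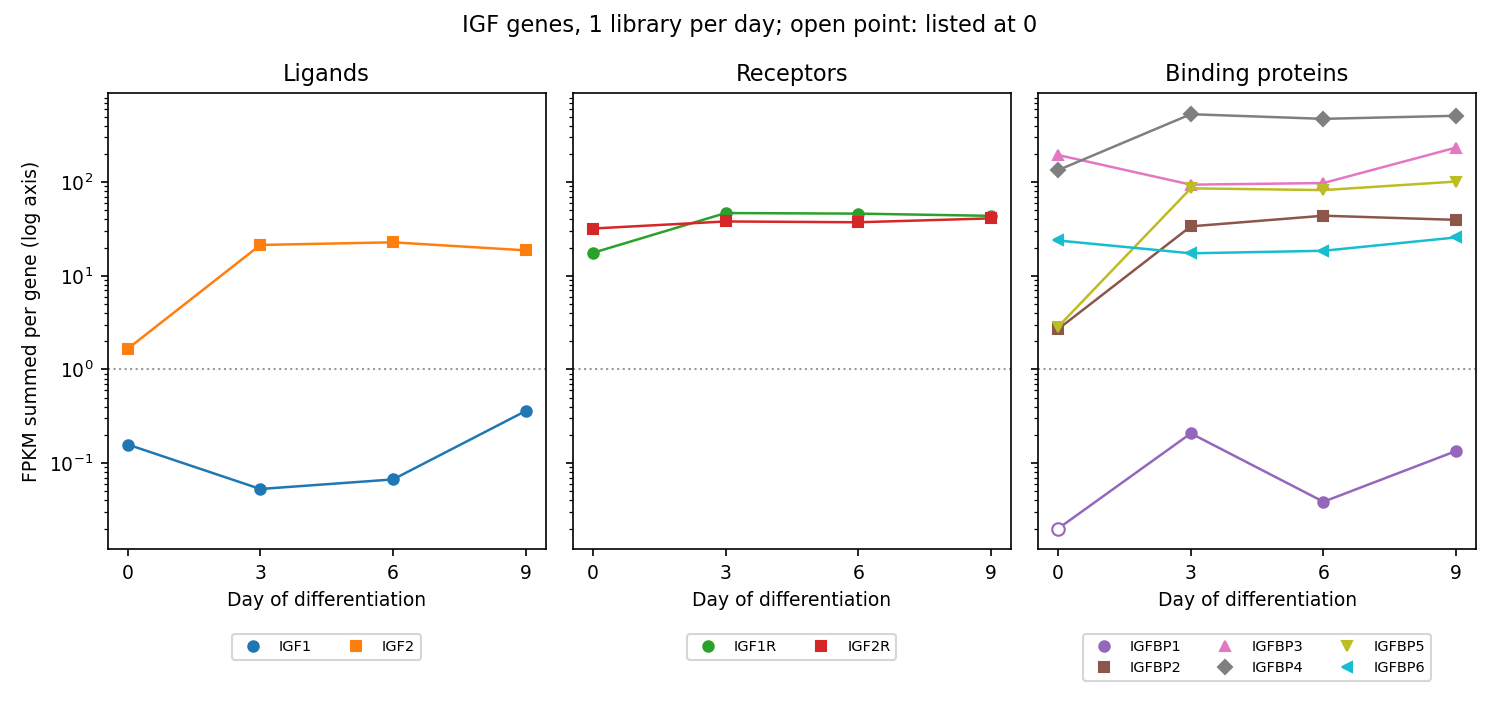
FPKM summed per gene on a log axis against the day, for the ligands, receptors and binding proteins, with 1 library per point and no error bars; the dotted line is 1 FPKM and the open point is IGFBP1 on day 0, listed at 0 and drawn near the bottom of the axis. IGF2, IGFBP2 and IGFBP5 lay between 1.66 and 2.86 FPKM on day 0 and between 18.7 and 101 later, while IGF2R and IGFBP6 stayed within the 2-fold limit and IGFBP3 dipped on days 3 and 6.

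Among the binding proteins, IGFBP5 (ENSG00000115461), the binding protein most closely tied to bone matrix, differed most from day 0. It had 2.86 FPKM on day 0 and 85.8, 82.2 and 101 FPKM on days 3, 6 and 9. The later libraries were at least 28.7 times above day 0, and day 9 was 35.4 times above it. Its log2 ratios of 4.49, 4.43 and 4.73 were at rank 5, 10 and 15 of the 12859 genes by rise. With 0.1 in place of 1 added to each FPKM, these ranks were 13, 22 and 27, since genes with lower FPKM then have larger ratios. By its FPKM, IGFBP5 moved from rank 10651 on day 0 to rank 839 on day 9.

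IGFBP2 (ENSG00000115457), which binds IGF2 with preference and carries an integrin-binding motif, followed with 2.70 FPKM on day 0 and 33.7, 43.8 and 39.5 later. Its log2 ratios to day 0 were 3.23, 3.60 and 3.45, highest on day 6. IGFBP2 and IGFBP5 are neighbours on chromosome 2, with 0 genes of the RefSeq table between them, and both were 2-fold higher on all 3 later days. IGFBP1 and IGFBP3 are neighbours in the same way on chromosome 7, and IGFBP1 was too low for its course to be read. IGFBP1 (ENSG00000146678), a liver protein that insulin represses, was listed at 0 on day 0 and had 0.208, 0.0386 and 0.135 FPKM on days 3, 6 and 9.

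IGFBP4 (ENSG00000141753), an inhibitor of IGF action in bone cells, was the most abundant of the IGF genes on each later day. It had 134 FPKM on day 0 and 531, 474 and 511 on days 3, 6 and 9, with log2 ratios of 1.97, 1.81 and 1.92. All later libraries were between 3.53 and 3.95 times above day 0. By level it moved from rank 663 to ranks 130, 153 and 148 of the 12859 genes.

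IGFBP3 (ENSG00000146674), the main carrier of IGFs in blood and a gene that p53 is known to induce, took another course. In the order of days it had 195, 93.9, 97.8 and 234 FPKM. The libraries thus paired, with days 3 and 6 low and days 0 and 9 high. Its log2 ratios to day 0 were -1.04, -0.99 and 0.26, of which only that of day 3 was past the limit. That call was lost when the libraries were scaled to the same sum (-0.85) or the ratios were centred on the median of all genes (-0.96). Between day 3 and day 9, both at the higher temperature, IGFBP3 was 2-fold higher by a log2 ratio of 1.31, or 1.23 with libraries scaled to the same sum. IGFBP6 (ENSG00000167779), which prefers IGF2 as its ligand, had 23.8, 17.4, 18.5 and 25.7 FPKM, with log2 ratios of -0.43, -0.35 and 0.10, all within the limit.

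**Figure D2:**
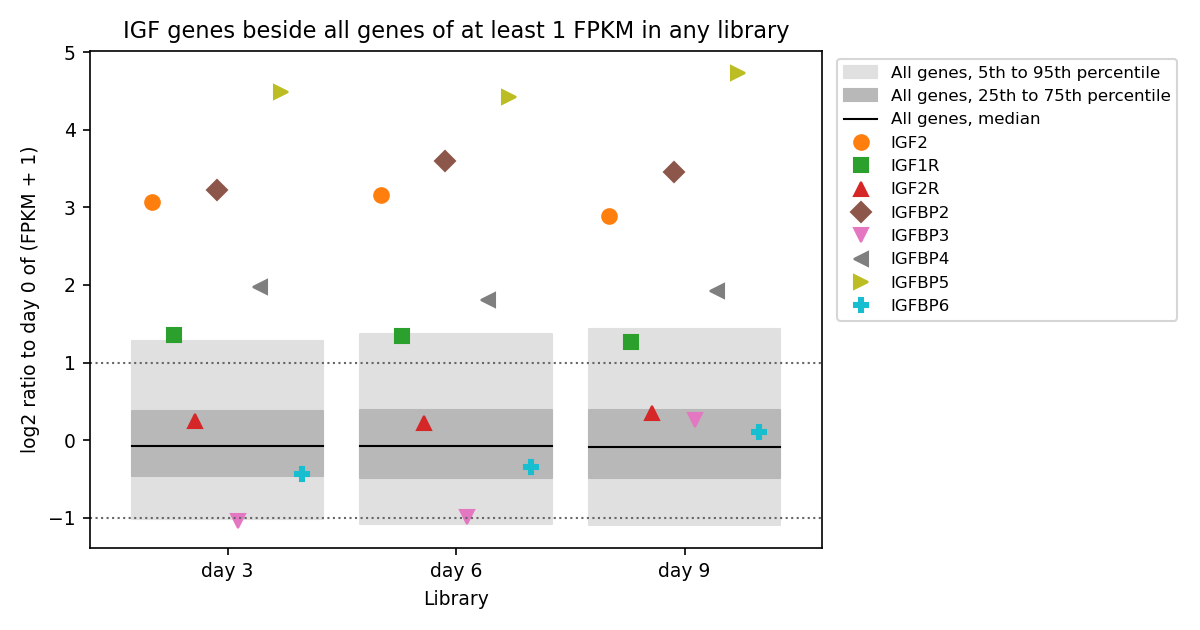
log2 ratio to day 0 of FPKM + 1 in the libraries of days 3, 6 and 9 for the 8 IGF genes of at least 1 FPKM; grey boxes span the 5th to the 95th and the 25th to the 75th percentile of the 12859 genes, black lines are their medians and dotted lines the 2-fold limit. IGFBP5, IGFBP2, IGF2 and IGFBP4 lay above the 95th percentile on each day, IGF1R lay above it on day 3 only, and IGFBP3 moved from -1.04 to 0.26.

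The count of IGF genes past the limit was 5 higher on day 3, the same 5 on day 6 and the same 5 on day 9, namely IGF2, IGF1R, IGFBP2, IGFBP4 and IGFBP5. Of all 12859 genes, 8.13% were 2-fold higher on day 3, 9.01% on day 6 and 9.60% on day 9. On all 3 days together, the same 5 of 8 IGF genes were higher, against 5.93% of all genes. The number of IGF genes 2-fold lower was 1 on day 3, where 5.30% of all genes were lower, 0 on day 6 (6.42% of all genes), 0 on day 9 (6.52%) and 0 on all 3 days (3.45%). The median log2 ratio of the 8 genes was 1.67, 1.58 and 1.59 on days 3, 6 and 9, and that of all genes was -0.08, -0.08 and -0.09. All 3 comparisons use the same day 0 library, and an error in that library would enter each of them.

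Within the higher temperature, IGFBP3 had the largest range of the 8 IGF genes. From day 3 to day 9, IGFBP3 was the 1 IGF gene that was 2-fold higher, where 1.39% of all genes were, and 0 were 2-fold lower, where 0.863% were. The range of log2(FPKM + 1) over days 3, 6 and 9 was 0.27 for IGF2, 0.10 for IGF1R, 0.37 for IGFBP2, 0.16 for IGFBP4 and 0.30 for IGFBP5. The median of this range over all 12859 genes was 0.25, so that IGF2, IGFBP2 and IGFBP5 were above it. That of IGFBP3 was 1.31, as large as or larger than that of 98.7% of the genes, and that of IGFBP6 was 0.54, with 85.8%. These ranges hold both the change between days and the error of single libraries, which could not be separated.

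The mixture of binding protein RNAs changed with these levels. The FPKM of IGFBP1 to IGFBP6 summed to 358 before the shift and to 762, 716 and 912 on days 3, 6 and 9. On day 0 IGFBP3 held 54.3% of this sum and IGFBP4 37.5%, but with the most abundant transcript alone IGFBP4 was ahead, with 46.7% against 43.6%. On day 3 IGFBP4 held 69.7%, IGFBP3 12.3% and IGFBP5 11.3%. By day 9 the share of IGFBP3 was 25.6% and that of IGFBP4 56.1%, while the FPKM of IGFBP4 stayed near that of day 3. IGFBP5 and IGFBP2 held 0.798% and 0.753% of the sum on day 0 and 11.1% and 4.34% on day 9, where the share of IGFBP2 was 2.55% with the most abundant transcript alone. The sum of the binding proteins was 216 times the FPKM of IGF2 on day 0 and 35.7, 31.5 and 48.8 times on days 3, 6 and 9. Binding protein RNA thus exceeded ligand RNA in all 4 libraries, and the ratio was smaller on the later days. The size of the day 0 ratio rests on 1.66 FPKM of IGF2, with every IGF2 transcript under 1 FPKM. The 10 genes together took 0.0663% of all FPKM of the table on day 0 and 0.178% on day 9.

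**Figure D3:**
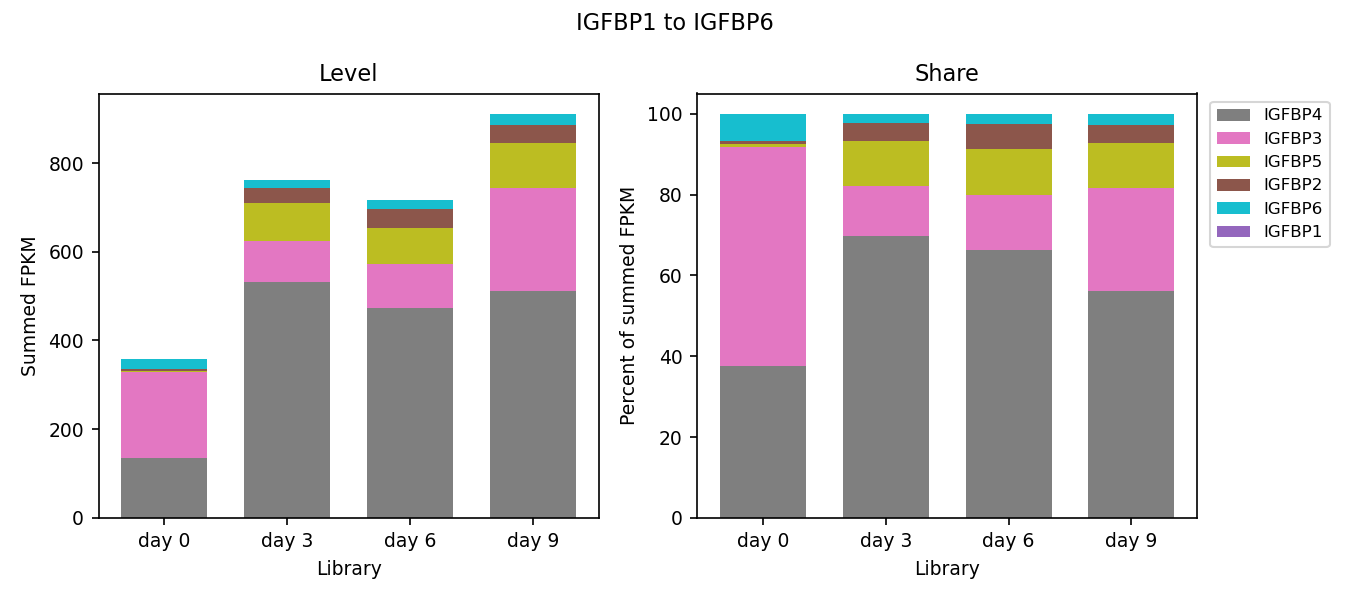
Summed FPKM of IGFBP1 to IGFBP6 in each library (left) and the percent of that sum held by each gene (right), with 1 library per bar. The sum was 358 FPKM on day 0 and 912 on day 9, and IGFBP3 held 54.3% of it on day 0 and 12.3% on day 3.

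In IGF2, IGF1R and IGFBP2 more than 1 transcript was higher. Of the 40 transcripts, 24 reached 1 FPKM in any library and 4 were listed at 0 in all of them. The number 2-fold higher on all 3 days was 11, and the number 2-fold lower on all 3 days was 0. Of the 37418 transcripts of the table that reached 1 FPKM in any library, 4.99% were higher and 5.25% lower on all 3 days. For IGF2, 4 of 7 transcripts were among the 11. The most abundant, ENST00000416167, had 0.357 FPKM on day 0 and 7.80, 7.98 and 7.54 later, and ENST00000418738 had 0.298 and then 4.82, 7.25 and 4.76. On day 0 every IGF2 transcript was under 1 FPKM, and their order is not read. ENST00000381392, which was not past the limit on all 3 days, had 0.507 FPKM on day 0 and 0.192, 0.616 and 1.26 later, and ENST00000381395 had 0.499 FPKM on day 0 and 3.10, 4.66 and 2.25 later.

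IGFBP2 had 3 of 4 transcripts among the 11. Its main transcript ENST00000233809 had 2.01 FPKM on day 0 and 15.4, 23.4 and 20.4 later, and ENST00000456764 had 0.687 and then 13.1, 15.1 and 13.8. The main transcript held 74.6% of IGFBP2 on day 0 and 45.6%, 53.4% and 51.5% on days 3, 6 and 9. Its share on day 0 rests on transcript values of at most 2.01 FPKM. For IGF1R, ENST00000268035 and 1 other of 5 transcripts were among the 11. ENST00000268035 had 6.32 FPKM on day 0 and 21.4, 17.6 and 15.1 later. ENST00000558355 had 4.08 and then 8.23, 12.05 and 10.5 and was past the limit on days 6 and 9 only. ENST00000558898, with 29.4% of IGF1R on day 0, had 5.17 and then 9.05, 9.85 and 10.3 FPKM. Its log2 ratios of 0.70, 0.81 and 0.87 were within the limit on every day.

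The dip of IGFBP3 was seen in both of its main transcripts. ENST00000613132 had 126 FPKM on day 0 and 61.7, 60.1 and 143 later, and ENST00000275521 had 53.0 and then 27.7, 31.0 and 70.7. Their shares of the gene stayed between 61.1% and 65.7% and between 27.2% and 31.7%. ENST00000381086 had 11.0, 0, 3.97 and 11.9 FPKM, where an exact 0 can be a failed estimate. IGFBP4 has 1 transcript in the table, and IGFBP5 was at least 99.3% ENST00000233813 in each library. How FPKM is divided between transcripts that share exons is an estimate, and no error is given for it.

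**Figure D4:**
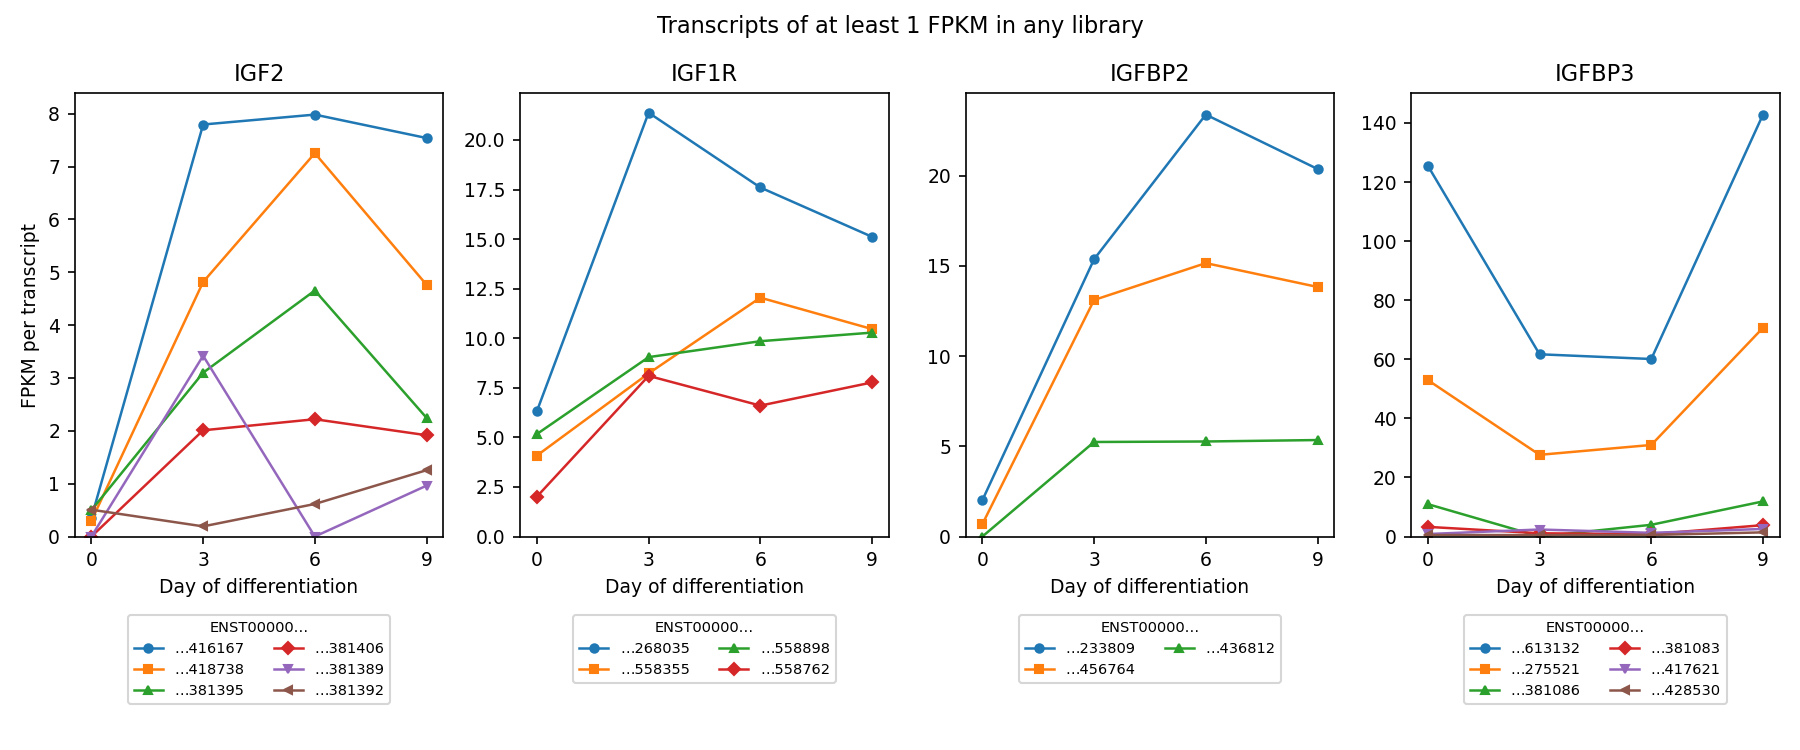
FPKM per transcript against the day for IGF2, IGF1R, IGFBP2 and IGFBP3, for the transcripts of at least 1 FPKM in any library, named by the last digits of their identifiers. The main transcripts of IGF2 and IGFBP2 were near the axis on day 0 and high on all later days, and both main transcripts of IGFBP3 dipped on days 3 and 6.

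Some of the genes that act on the binding proteins differed from day 0. Of 8 proteases and protease inhibitors, 7 passed the minimum, and 3 of these were 2-fold higher on all 3 days and 0 lower, where 5.93% of all genes were higher and 3.45% lower. STC2, HTRA1, ADAM9 and ADAM12 were within the limit on every day. PAPPA, the metalloproteinase that cleaves IGFBP4 and IGFBP5, had 6.07 FPKM on day 0 and 108, 126 and 119 later, with log2 ratios of 3.94, 4.16 and 4.08. STC1, a stanniocalcin that inhibits PAPPA, had 6.03, 7.55 and 10.3 FPKM on days 3, 6 and 9, with log2 ratios of 1.68, 1.96 and 2.37 to day 0, and its more abundant relative STC2 had 101 and then 136, 162 and 173, within the limit. C1S, a complement protease that can cleave IGFBP5, had 5.23 and then 20.3, 29.7 and 35.4 FPKM. The RNA of IGFBP4, of IGFBP5 and of PAPPA was thus 2-fold higher on the same days, while that of HTRA1, ADAM9 and ADAM12 was not.

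Of 7 partners and relatives, 5 passed the minimum, with 2 higher on all 3 days and 0 lower, beside the same 5.93% and 3.45% of all genes. IGFBP7, a related protein that binds IGFs weakly, had 385 FPKM on day 0 and 927, 941 and 998 later, more than any of the 10 IGF genes. LRP1, a scavenger receptor to which IGFBP3 can bind, had 47.3 FPKM and then 158, 153 and 160. The insulin receptor gene INSR had 2.03 FPKM and then 4.52, 4.93 and 5.46, and was past the limit on day 9 only, with a log2 ratio of 1.09. IGFALS, whose protein forms the ternary complex of the blood with IGFBP3, was under 1 FPKM in every library.

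Inside the cell, the genes of the pathway were mostly within the limit, as were most genes of the table. Of 29 genes of the docking proteins and of the cascades below IGF1R, all passed the minimum, 1 was 2-fold higher on each later day and 0 were lower on any. Of all genes, between 8.13% and 9.60% were higher and between 5.30% and 6.52% lower on a given day. The 1 gene was FOXO1, the transcription factor that AKT keeps out of the nucleus, with 3.84 FPKM on day 0 and 9.71, 9.61 and 8.95 later. The other 28 had log2 ratios between -0.90 and 1, and the median of the 29 was -0.06, -0.02 and 0.05. The most abundant, the adaptor gene SHC1, had 120 FPKM on day 0 and 207, 191 and 179 later. IRS1, the main docking protein of IGF1R in osteoblasts, had 10.4 and then 18.2, 14.1 and 15.3 FPKM, and AKT1 had 103 and then 71.3, 61.5 and 56.4, all within the limit.

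Of 9 genes of the growth hormone and parathyroid hormone inputs, 8 passed and 0 were past the limit in either direction on days 3, 6 or 9. Between 8.13% and 9.60% of all genes were higher and between 5.30% and 6.52% lower on a given day. In lists this short, a count of 0 is therefore not read as a result. The growth hormone receptor gene GHR had at most 0.255 FPKM, and SOCS3, the most abundant of the list, had 18.9, 13.8, 11.1 and 9.12 FPKM. The 3 genes of the IGF2 mRNA-binding proteins, which bind IGF2 RNA and not IGFs, were also within the limit, and the most abundant, IGF2BP2, had between 53.4 and 61.8 FPKM. Of 7 genes that tag or sort proteins by mannose 6-phosphate, the mark that IGF2R reads, 0 were past the limit on all 3 days. GNPTAB, which makes the tag, was higher on days 6 and 9, with log2 ratios of 1.12 and 1.11, and NAGPA, which uncovers it, was lower, with -1.13 and -1.44. M6PR, the second receptor of this kind and the most abundant of the list, had 71.6 FPKM on day 0 and between 53.8 and 63.6 later.

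IGF2 is an imprinted gene, and 8 other imprinted growth genes were looked at, of which 5 passed and 0 were past the limit on all 3 days. CDKN1C, a cell cycle inhibitor, had 1.78, 6.13, 3.01 and 2.77 FPKM and was past the limit on day 3 only. MEST, the most abundant, had 57.8, 79.5, 35.2 and 24.4 FPKM and was 2-fold lower on day 9, and PEG10 was 2-fold higher on days 6 and 9, with log2 ratios of 1.05 and 1.52. Over the 71 genes of all these lists, 64 passed the minimum, and 7, 8 and 9 of them were higher and 0, 1 and 2 lower on days 3, 6 and 9. Among all 12859 genes, 8.13%, 9.01% and 9.60% were higher and 5.30%, 6.42% and 6.52% lower on these days.

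**Figure D5:**
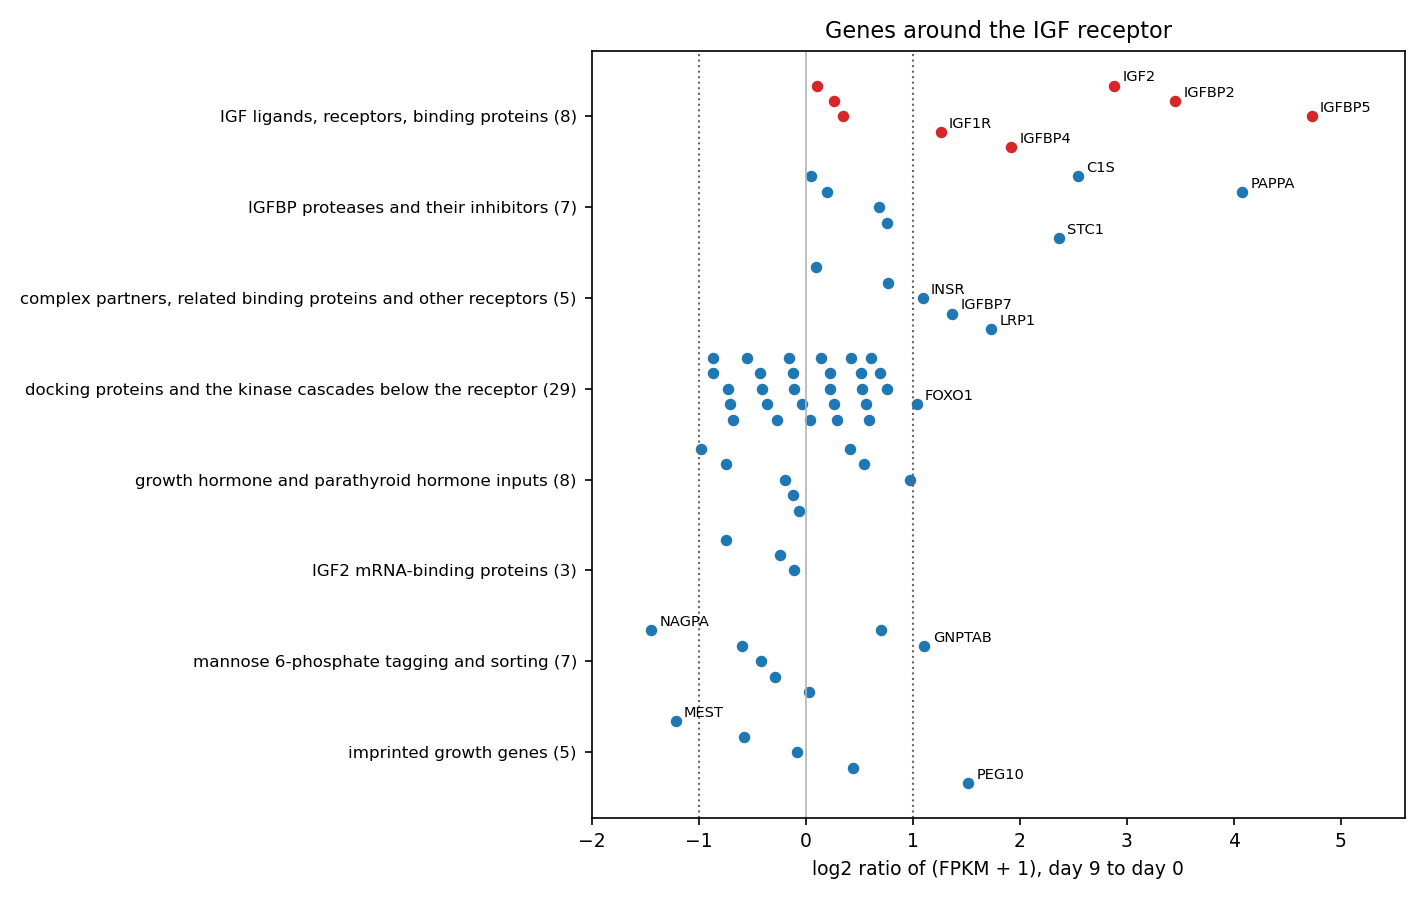
log2 ratio of FPKM + 1 between day 9 and day 0 for each gene of at least 1 FPKM in any library, by list, with the number of genes in brackets; red points are the IGF genes, dotted lines the 2-fold limit, and genes past it are named. The IGF genes and the proteases reach up to 4.73 and 4.08, while 28 of 29 genes of the cascades lie between the lines.

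The genes whose course was most like that of IGFBP5 were sought by the distance between the 3 log2 ratios to day 0, over 12858 other genes and 4 libraries that they all share. The nearest were SULF2, a sulfatase that edits heparan sulfate, at a distance of 0.66, CDKN1A, which encodes the cell cycle inhibitor p21, at 0.70, and INPP5D, an inositol phosphatase, at 0.79. SULF2 had 2.85 FPKM on day 0 and 60.7, 69.9 and 78.1 later. CDKN1A was far more abundant, with 74.7 FPKM on day 0 and 1524, 1391 and 1283 later. With 1 shift between day 0 and all later days, such a likeness rests mainly on the size of that shift.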

How the data were processed

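Total RNA of hFOB1.19 cells was sequenced in 4 libraries, 1 for each of days 0, 3, 6 and 9, and columns were matched to samples by the day in the titles. Per the methods, ribosomal RNA was removed and reads were aligned with Bowtie and TopHat. The authors deposited FPKM per transcript. The program behind the FPKM is not given in the sources used here. The submitters' processing notes name Bowtie 0.12.2 and the mouse build mm8, while the identifiers are human Ensembl genes, so no gene coordinates are printed other than those of the RefSeq windows. RNase R, which digests linear RNA, is described for the mRNA libraries, and its effect on FPKM is not known.

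FPKM hold values down to 4.27e-08, which are estimates and not whole reads, so depth per gene is unknown and no interval is given. FPKM were summed per symbol, and 0 IGF symbols cover more than 1 gene ID. Ratios, the minimum of 1 FPKM and the 2-fold limit are as stated in the results; the steps were tested on simulated data. The members, gene lists and rules were chosen with earlier results of these data known. Named genes are the 10 IGF genes, from each list those past the limit on all 3 later days and the most abundant, the 3 nearest to the IGF gene with the largest day 9 ratio, and H19 or symbols starting with IGF in the lncRNA table. Transcripts named are the most abundant of a gene or hold at least 20% of it in any library. Other list genes (such as HTRA1, ADAM9, ADAM12, INSR, IRS1, AKT1, GHR, GNPTAB, NAGPA, CDKN1C and PEG10) and ENST00000381086 were named after their values were seen, and the motifs were also chosen then. The circRNA table names no host genes, and the authors' own comparison tables hold fold changes, p-values and q-values; neither was used. Python 3.11.15, numpy 2.4.6, pandas 2.3.3 and matplotlib 3.10.9 were used.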

Additional observations from a re-analysis of the deposited data

Results flagged for a closer look

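IGFBP3 and IGFBP6 were below day 0 on days 3 and 6 and above it on day 9, and this difference in direction between time points, which was not tested, is why they are listed. The highest and the lowest log2 ratio to day 0 were 1.31 apart for IGFBP3 and 0.54 apart for IGFBP6. IGFBP6 stayed within the 2-fold limit on each day.

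The lncRNA table, which the comparisons above do not use, holds H19, an imprinted noncoding gene that lies near IGF2 on chromosome 11, and a signal above day 0 is why it is listed. Summed over 2 transcripts, H19 had 1.36, 13.6, 4.97 and 2.65 FPKM in the order of days. Its log2 ratio to day 0 was largest on day 3, at 2.63, and was 1.34 on day 6 and 0.63 on day 9. The FPKM of H19 was thus lower on each day after day 3, while the log2 ratio of IGF2 between day 9 and day 3 was -0.18. The 2 genes come from different tables, and the difference between them was not tested.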

How the results depend on the processing

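No paired analysis was possible because there is a single library for each day, and for the same reason none could be left out. The 5 IGF genes that were higher were the same with 0.1 added to the FPKM, with either rescaling, and with the most abundant transcript alone. Leaving out the minimum or setting it at 5 FPKM could not change them. A 2-fold rise after 1 is added needs at least 1 FPKM, and all 5 had at least 18.7 FPKM on each later day. With a limit of 4-fold, 3 were higher on each later day and on all 3 days together (IGF2, IGFBP2 and IGFBP5). At that limit 0 were lower on day 3 and 0 higher from day 3 to day 9, as a stricter limit does by construction. Among all genes, 1.66%, 2.01% and 2.34% were 4-fold higher on days 3, 6 and 9, and 1.24% on all 3 days. The share 4-fold lower on day 3 was 0.77%, and that 4-fold higher from day 3 to day 9 was 0.264%. The number lower on day 3 was also 0 with libraries rescaled to the same sum and with ratios centred on the median. Under these settings 3.53% and 4.24% of all genes were lower on day 3. The number lower on day 6 was 1, IGFBP3, with a limit of 1.5-fold and with the most abundant transcript alone. With that transcript the log2 ratio of IGFBP3 was -1.05. The shares of all genes lower on day 6 were 20.1% and 7.17%, in the same order. The other 70 of 80 counts stayed within 1.5 times, and many of these were 0 in both settings. No called log2 ratio of an IGF gene changed its sign. The called ratio of smallest size, -1.04 for IGFBP3 on day 3, moved only to -0.96 and -0.85 with the rescalings. A change of sign was thus hardly possible under them. With 0.1 added, IGF1 and IGFBP1 had ratios past the limit (1.59 for IGF1 from day 3 to day 9, and 1.62 and 1.23 for IGFBP1 on days 3 and 9), which rest on values under 1 FPKM. With the most abundant transcript alone, IGFBP3 held 43.6% and IGFBP4 46.7% of the binding protein FPKM on day 0, so that their order on that day turned over. Without read counts or replicates, no ratio here has an error.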
